A study of Mus musculus with 4 samples.

Results

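The genes described here are 32 genes of the unfolded protein response and of its ATF4 arm, measured by RNA-seq in 4 libraries from mouse B16 tumors. They were taken as a fixed list of symbols, all 32 of which were found among the 25239 gene symbols of each count table. The list holds 10 regulators and targets of the ATF4 arm, 8 ATF4 targets that make or import amino acids, 10 chaperones and folding factors of the endoplasmic reticulum (ER), and Xbp1 with 3 genes of ER-associated degradation. B16 is a transplantable mouse melanoma line, here grown under the skin of both flanks of B6 mice, with treatment on day 7. Tumors were harvested 12 days after a step written ACT, which is not spelled out. The protocol gives CTX by intraperitoneal injection the day before ACT, without excepting any group.

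The MV left tumor library came from left tumors that received free MV, in mice that were also given TRP-1 T cells by vein. The table headers write MV as MYXV, the usual abbreviation of myxoma virus. The TRP-1MV library came from tumors of mice given TRP-1MV cells by vein, with no virus injected into the tumor. These libraries are together called the virus tumors. The Remote tumor library came from the right tumors of the mice treated with MV and TRP-1 T cells, which were not themselves injected. The CTX library came from mice with PBS in the left tumor, no T cells and no virus, and its flank is not stated. A group given T cells alone is named in the protocol and was not analysed here. The source field calls the material a melanoma cell line, while the protocol describes RNA from tumor tissue, so host cells are part of each library.

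Each group had 1 library, so no difference has a replicate check and no p-value can be given. The labels state n = 2 without saying whether tissue from several mice was pooled. Totals were 12375526 counts in the MV left tumor, 14802809 in TRP-1MV, 21790759 in the Remote tumor and 20811605 in CTX, and 31 of the 32 genes had at least 100 reads in every library. Levels are given as CPM, read counts set relative to the TMM-scaled depth of their library. Each log2 ratio has a 95% interval that covers counting error only and leaves out the spread between mice, cages and libraries. The words higher and lower are kept for genes with a ratio of 2 or more in that direction and an interval that leaves out equality.

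When unfolded proteins build up in the ER, a set of membrane sensors responds. IRE1 (Ern1) splices Xbp1 mRNA, ATF6 is cut to release a transcription factor, and PERK (Eif2ak3) phosphorylates eIF2alpha, which slows translation while favouring that of Atf4. XBP1 and ATF6 drive chaperone genes, whereas ATF4 drives genes of amino acid supply and redox balance. ATF4 is also induced without ER stress, through the eIF2alpha kinases that sense amino acid shortage, viral double-stranded RNA or haem shortage. Both arms are known to be active in melanoma.

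The medians of the amino acid genes and the chaperones stood apart in the tumors with virus treatment, while single genes of these lists overlapped. In the MV left tumor 6 of the 8 amino acid genes were lower than in CTX, with a median log2 ratio of −1.45, against 2 lower and 1 higher of 10 chaperones, with a median of −0.41. In TRP-1MV against CTX the amino acid genes counted 6 lower and 1 higher, with a median of −1.48, and the chaperones 2 lower and 1 higher, with a median of −0.40. Over all 13357 genes compared, the median log2 ratio was −0.05 in the MV left tumor against CTX and −0.07 in TRP-1MV against CTX. In the MV left tumor against CTX, 11.1% of all genes compared were called lower and 18.1% higher, and the 32 members counted 11 lower and 4 higher, including Stc2, which was compared only through its reads in the virus tumors. In TRP-1MV against CTX those background shares were 11.7% lower and 18.5% higher, and the members counted 10 lower and 5 higher. Both of these comparisons use the same CTX library.

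**Figure D1:**
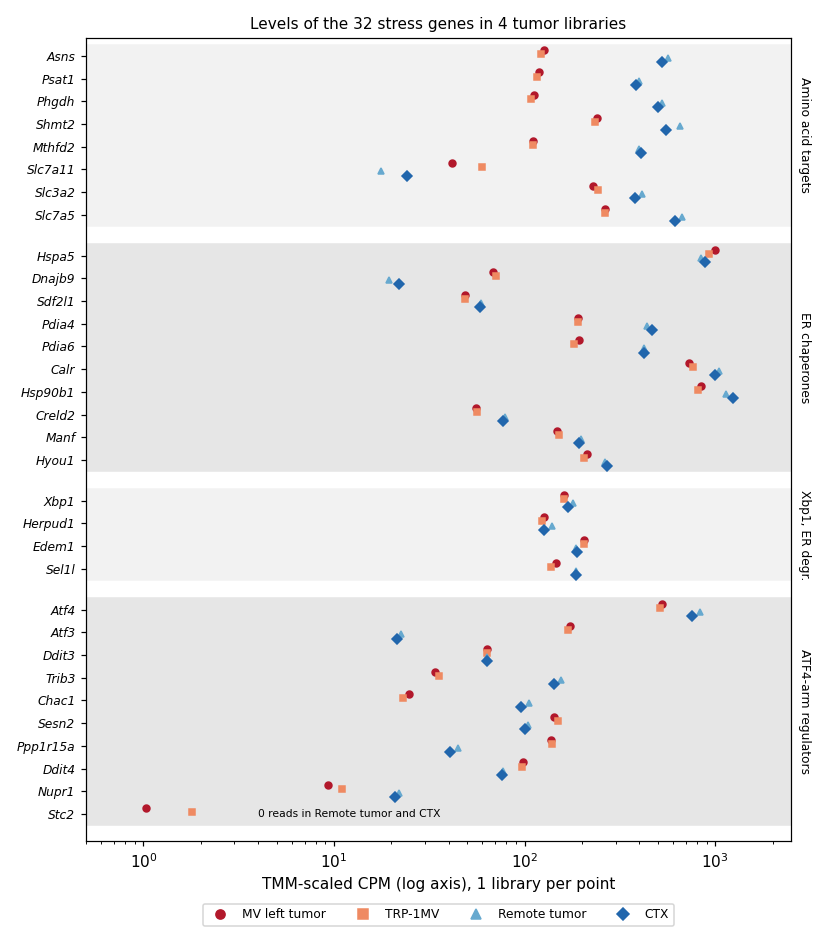
Level of each of the 32 genes in the 4 libraries, as TMM-scaled CPM on a log axis, with 1 point per library and genes grouped by role. The MV left tumor and TRP-1MV points lie close together, as do those of the Remote tumor and CTX, and the pairs are far apart for Asns, Phgdh, Trib3, Chac1 and Atf3.

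Markers of other cells moved with these results. Melanocyte markers were lower for 9 of 10 genes in both virus tumors against CTX, with none at 0 in any library, and their summed level was 6272 CPM in the MV left tumor, 5867 CPM in TRP-1MV and 26615 CPM in the Remote tumor, against 26166 CPM in CTX. Their median log2 ratio to CTX was −1.97 in the MV left tumor, with a range of −2.45 to −0.46, and 2 of the 8 amino acid genes, Asns and Phgdh, lay below that median, as did 1 of the 10 regulators and 0 of the 10 chaperones. T cell markers were higher for 10 of 10 genes in both virus tumors against CTX, with none at 0. They summed to 656 CPM in the MV left tumor, 658 CPM in TRP-1MV and 10.1 CPM in the Remote tumor, against 10.6 CPM in CTX. Most of the sum was Il2ra, with 415 CPM in the MV left tumor and 418 CPM in TRP-1MV. Macrophage markers were higher for 8 of 10 in both virus tumors against CTX, with none at 0. They summed to 967 CPM in the MV left tumor, 1415 CPM in TRP-1MV and 98.6 CPM in the Remote tumor, against 78.1 CPM in CTX. Beside these marker counts, 18.1% of all genes compared were higher and 11.1% lower in the MV left tumor against CTX. In TRP-1MV against CTX the shares were 18.5% and 11.7%. Libraries low in the amino acid genes were thus low in melanocyte markers and rich in leukocyte markers.

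Neutrophil markers had a summed level of 168 CPM in the MV left tumor, 267 CPM in TRP-1MV and 1.76 CPM in the Remote tumor, against 1.20 CPM in CTX. Most of the sum was 1 gene, Mmp8, with 143 CPM in the MV left tumor and 229 CPM in TRP-1MV. Ly6g had 1 read in the MV left tumor and 3 reads in TRP-1MV. Retnlg was at 0 in the MV left tumor, S100a8, Ly6g and Retnlg in the Remote tumor, and S100a8, Cxcr2 and Retnlg in CTX. Of the 8 neutrophil markers 5 could be compared, most of them only through their reads in the virus tumors, as could many of the T cell markers, so counts of higher leukocyte markers are no support. Dendritic cell markers were higher for 3 of 4 in the MV left tumor against CTX, summing to 154 CPM against 9.91 CPM, with 104 CPM in the MV left tumor from Ccr7. Some of these too were compared only through their reads in the virus tumors. Endothelial markers were higher for 2 of 5, summing to 26.8 CPM against 13.0 CPM in CTX, and fibroblast markers for 0 of 6, where 18.1% of all genes were higher. The part of these cells in the results was not tested. In bulk tumors fewer cells of a type and less RNA per cell cannot be told apart.

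The amino acid group began with Asns, asparagine synthetase, which is a much used reporter of ATF4 activity. Asns had 126 CPM in the MV left tumor, 121 CPM in TRP-1MV and 563 CPM in the Remote tumor, against 526 CPM in CTX. Its log2 ratio to CTX was −2.06 (95% interval −2.13 to −1.98) in the MV left tumor and −2.12 (−2.19 to −2.05) in TRP-1MV. The libraries with virus treatment were therefore low for Asns and the other libraries high.

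The serine pathway genes had the same order of libraries. Phgdh, the first enzyme of serine synthesis, had 112 CPM in the MV left tumor, 108 CPM in TRP-1MV and 527 CPM in the Remote tumor, against 498 CPM in CTX, and its log2 ratio of −2.15 in the MV left tumor against CTX was the lowest of the 32. Psat1, the next enzyme, had 119 CPM in the MV left tumor, 116 CPM in TRP-1MV and 398 CPM in the Remote tumor, against 383 CPM in CTX. Log2 ratios to CTX for Psat1 were −1.68 in the MV left tumor and −1.72 in TRP-1MV. Mthfd2, a mitochondrial folate enzyme that uses serine-derived carbon, had 110.2 CPM in the MV left tumor, 111 CPM in TRP-1MV and 399 CPM in the Remote tumor, against 408 CPM in CTX. Shmt2, the mitochondrial enzyme that splits serine to glycine, had 240.2 CPM in the MV left tumor, 233 CPM in TRP-1MV and 649 CPM in the Remote tumor, against 549 CPM in CTX. The levels of these serine and folate genes were low in both virus tumors and high in the Remote tumor and CTX. Shmt2 was lower at a log2 ratio to CTX of −1.19 in the MV left tumor and −1.24 in TRP-1MV, calls that were lost when libraries were scaled by total counts or on housekeeping genes.

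The transporters split. Slc7a5, the light chain of the leucine transporter LAT1, had 264 CPM in both the MV left tumor and TRP-1MV and 665 CPM in the Remote tumor, against 613 CPM in CTX. The ratio of Slc7a5 to CTX was called lower in both libraries, at −1.21 and −1.22, and not called on the total-count or housekeeping scale. Slc3a2, the heavy chain shared by LAT1 and the cystine transporter, was not called, with log2 ratios to CTX of −0.73 in the MV left tumor and −0.64 in TRP-1MV. Slc7a11, the cystine light chain of system xc-, ran the other way. It had 41.6 CPM in the MV left tumor, 60.0 CPM in TRP-1MV and 17.7 CPM in the Remote tumor, against 24.2 CPM in CTX. Slc7a11 was higher in TRP-1MV than in CTX at a log2 ratio of 1.31 (1.15 to 1.47). In the MV left tumor against CTX its log2 ratio was 0.78 (0.60 to 0.96), which was not called, whereas it was called higher on the total-count scale, at 1.03, and on the housekeeping scale, at 1.24.

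Promoter windows were searched for known motifs of both arms. RefSeq windows of 300 bases on mm10 (GRCm38.p6), running from 250 bases before to 50 bases after the annotated start, were found for 29 of the 32 genes. None was found for Manf, Slc7a5 and Hyou1. Psat1 had more than 1 window, and these were counted together as 1, with a match in any of them counting. Shares over all windows count each window separately. The motif searched on both strands was the C/EBP-ATF response element (CARE), TGATGNAA, at which ATF4 with a C/EBP partner is known to bind. It was in 7 of the 29 windows, against 3.97% of all 32851 windows, made up of 4 of 10 regulator windows, 2 of 7 amino acid windows and 1 of 4 windows of Xbp1 and the degradation genes, and its letters overlap none of the other motifs searched. Its 6 carriers outside the degradation genes are shown because they include Asns, Trib3 and Chac1 as well as Atf3, genes called in opposite directions, with the motif in capitals, read 5′ to 3′ on the gene's strand.
Asns (mm10 chr6:7693205-7693252, minus strand): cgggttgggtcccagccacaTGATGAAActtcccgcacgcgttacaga
Slc7a11 (mm10 chr3:50443633-50443699, minus strand, 2 matches): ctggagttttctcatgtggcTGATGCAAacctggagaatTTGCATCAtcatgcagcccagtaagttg
Chac1 (mm10 chr2:119351029-119351076, plus strand): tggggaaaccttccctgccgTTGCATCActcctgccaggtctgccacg
Trib3 (mm10 chr2:152344019-152344066, minus strand): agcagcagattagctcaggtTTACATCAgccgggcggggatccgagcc
Atf3 (mm10 chr1:191183416-191183463, minus strand): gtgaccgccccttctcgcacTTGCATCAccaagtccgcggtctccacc
Nupr1 (mm10 chr7:126625553-126625600, minus strand): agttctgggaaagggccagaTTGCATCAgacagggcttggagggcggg
Of these carriers, Asns, Trib3 and Chac1 were lower in both virus tumors than in CTX, Atf3 was higher in both, Slc7a11 was called higher in TRP-1MV and Nupr1 lower in the MV left tumor. A match is a stretch of letters and not a measured binding site.

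The regulators divided among themselves, with 3 higher and 3 lower of 10 in the MV left tumor against CTX, where 18.1% of all genes were higher and 11.1% lower, and 3 higher and 2 lower in TRP-1MV against CTX, where the shares were 18.5% and 11.7%. The 3 higher genes were Atf3, Ppp1r15a and Stc2 in both, and Stc2 was counted only because of its reads in the virus tumors. With Stc2 included, the regulator median log2 ratio to CTX was 0.19 in the MV left tumor and 0.18 in TRP-1MV. The regulators as a group thus did not share the low median of the amino acid genes. Atf4, the central transcription factor of the arm, had 526 CPM in the MV left tumor, 515 CPM in TRP-1MV and 835 CPM in the Remote tumor, against 759.6 CPM in CTX. Its log2 ratios to CTX, −0.53 in the MV left tumor and −0.56 in TRP-1MV, were not called, and ATF4 is controlled mainly by translation, which gene counts do not measure. Atf3, an immediate stress-induced factor that many signals besides ATF4 induce, had 173 CPM in the MV left tumor, 168 CPM in TRP-1MV and 22.4 CPM in the Remote tumor, against 21.5 CPM in CTX. Its log2 ratio to CTX was 3.01 (2.86 to 3.16) in the MV left tumor and 2.97 (2.82 to 3.12) in TRP-1MV. Both virus tumors were high for Atf3, at 8.05-fold the CTX level in the MV left tumor and 7.81-fold in TRP-1MV, while Atf4 itself was not called.

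Trib3, a pseudokinase that holds ATF4 back, had 33.7 CPM in the MV left tumor, 35.3 CPM in TRP-1MV and 155 CPM in the Remote tumor, against 143 CPM in CTX. Chac1, a glutathione-degrading enzyme, had 24.7 CPM in the MV left tumor, 22.9 CPM in TRP-1MV and 106 CPM in the Remote tumor, against 96.2 CPM in CTX. Both genes were lower, with log2 ratios to CTX of −2.08 and −1.96 in the MV left tumor and of −2.01 and −2.07 in TRP-1MV, naming Trib3 before Chac1 each time. Ddit3, which encodes the death-linked factor CHOP that induces both, had 63.5 CPM in the MV left tumor, 63.3 CPM in TRP-1MV and 63.8 CPM in the Remote tumor, against 63.4 CPM in CTX. The 4 Ddit3 levels lay within counting error of each other on the TMM scale, and the interval of its log2 ratio in the MV left tumor against CTX ran from −0.12 to 0.13.

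Ppp1r15a, encoding the GADD34 subunit that reverses eIF2alpha phosphorylation, had 137 CPM in the MV left tumor, 139.7 CPM in TRP-1MV and 44.6 CPM in the Remote tumor, against 40.5 CPM in CTX. It was higher at log2 ratios to CTX of 1.76 in the MV left tumor and 1.79 in TRP-1MV. Nupr1, a small stress-induced chromatin protein, had 9.32 CPM in the MV left tumor, 11.0 CPM in TRP-1MV and 21.9 CPM in the Remote tumor, against 20.8 CPM in CTX. Its log2 ratio to CTX of −1.16 in the MV left tumor was called lower, though not on the total-count or housekeeping scale, and −0.92 in TRP-1MV was not called. Sesn2 and Ddit4, both inhibitors of mTORC1 signalling, were not called, with log2 ratios to CTX between 0.36 and 0.57 in the MV left tumor and TRP-1MV. On the housekeeping scale Sesn2 was called higher in TRP-1MV than in CTX, at 1.02.

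Stc2, a secreted glycoprotein induced by the ATF4 arm, was the rarest of the 32. It had 14 reads in the MV left tumor, 29 reads in TRP-1MV and 0 reads in the Remote tumor, against 0 reads in CTX, where 0 reads allow up to 0.156 CPM at a floor of 3 counts per library. With CTX set at that floor, Stc2 was 6.62-fold higher in the MV left tumor than in CTX, with a counting interval starting at 4.71-fold. In TRP-1MV against CTX it was 11.5-fold higher, with an interval starting at 8.78-fold, and neither interval has an upper end. Stc2 passed the minimum mean count of 10 only through the virus tumors. It is 1 of the 3 regulators counted as higher and had to differ to be counted.

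**Figure D2:**
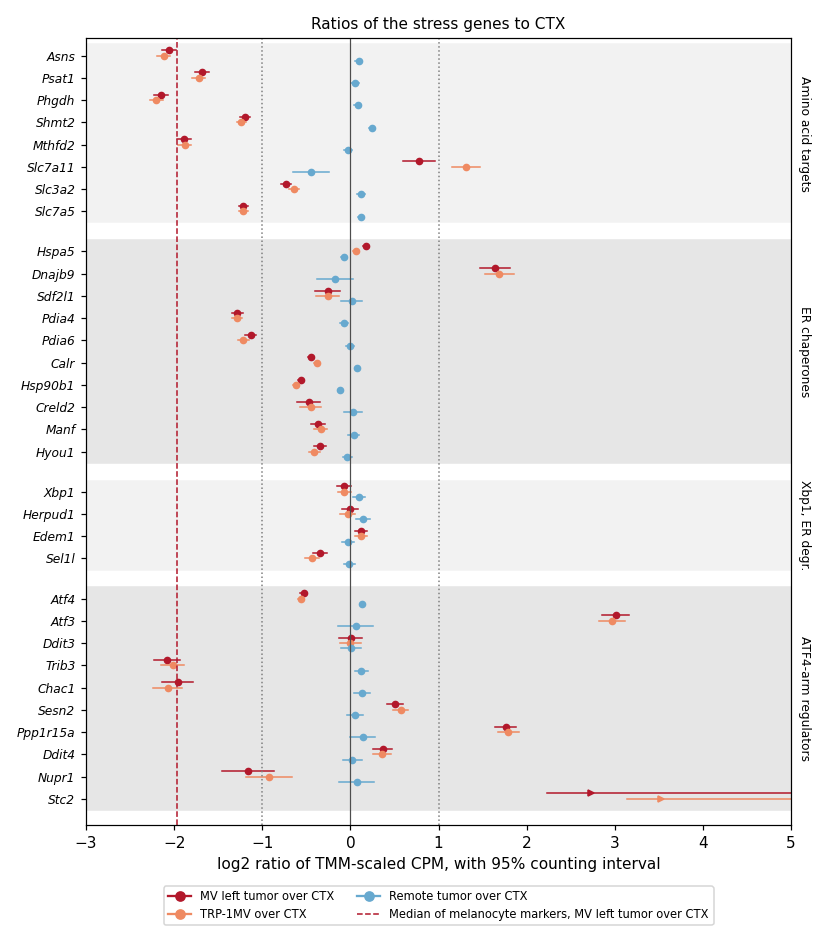
Log2 ratio to CTX of each gene in the MV left tumor, TRP-1MV and the Remote tumor, with 95% counting intervals, dotted lines at a ratio of 2 in either direction and a dashed line at the melanocyte marker median of the MV left tumor. Amino acid genes other than Slc7a11 lie left of equality at −0.73 or below in the MV left tumor, chaperones other than Dnajb9, Pdia4 and Pdia6 lie between −0.56 and 0.18, and Remote tumor points lie near 0.

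Among the ER chaperones, Hspa5 encodes BiP, the central chaperone that also holds the sensors inactive. Hspa5 had 999 CPM in the MV left tumor, 924 CPM in TRP-1MV and 842 CPM in the Remote tumor, against 884 CPM in CTX. Its log2 ratio to CTX was 0.18 (0.14 to 0.21) in the MV left tumor and 0.06 (0.03 to 0.10) in TRP-1MV, both short of the ratio of 2. Hsp90b1 (GRP94) had 842 CPM in the MV left tumor, 808 CPM in TRP-1MV and 1143 CPM in the Remote tumor, against 1240.0 CPM in CTX. Calr, calreticulin, which folds glycoproteins, had 727 CPM in the MV left tumor, 761 CPM in TRP-1MV and 1049 CPM in the Remote tumor, against 993 CPM in CTX. Neither was called, with log2 ratios to CTX of −0.56 for Hsp90b1 and −0.45 for Calr in the MV left tumor.

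Pdia4 and Pdia6, disulfide isomerases, were lower. Pdia4 had 191 CPM in the MV left tumor, 190.5 CPM in TRP-1MV and 441 CPM in the Remote tumor, against 464 CPM in CTX, with a log2 ratio to CTX of −1.28 in each virus tumor. Pdia6 had 193 CPM in the MV left tumor, 182 CPM in TRP-1MV and 421 CPM in the Remote tumor, against 423 CPM in CTX, with log2 ratios to CTX of −1.13 and −1.21. On the housekeeping scale neither was called, and on the total-count scale Pdia6 was not called in either virus tumor. Dnajb9 (ERdj4), a BiP co-chaperone and a classical XBP1 target, was the single chaperone gene called higher. It had 68.1 CPM in the MV left tumor, 70.5 CPM in TRP-1MV and 19.3 CPM in the Remote tumor, against 21.9 CPM in CTX, and its log2 ratio to CTX was 1.64 (1.47 to 1.81) in the MV left tumor and 1.69 (1.52 to 1.85) in TRP-1MV. The remaining chaperone genes, Sdf2l1, Creld2, Manf and Hyou1, were not called and had log2 ratios to CTX between −0.48 and −0.26 in the MV left tumor.

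The ER stress response element (ERSE), written CCAAT, then 9 bases of any kind, then CCACG, is bound by NF-Y at its CCAAT end and by ATF6 or XBP1 at its CCACG end. Searched on both strands, it was in 5 of the 8 chaperone windows found, in none of the windows of the other members, and in 0.119% of all windows. The CARE motif was in 0 of the 8 chaperone windows. CCAAT alone, which is part of ERSE, was in 22 of the 29 windows, made up of 8 of 8 chaperone, 7 of 10 regulator, 4 of 7 amino acid and 3 of 4 degradation windows, against 37.4% of all windows. The sequences are shown because ERSE was found in no member outside the chaperones, with ERSE in capitals, read 5′ to 3′ on the gene's strand.
Hspa5 (mm10 chr2:34772005-34772063, plus strand): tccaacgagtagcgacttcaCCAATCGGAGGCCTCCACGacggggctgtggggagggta
Pdia6 (mm10 chr12:17266471-17266529, plus strand): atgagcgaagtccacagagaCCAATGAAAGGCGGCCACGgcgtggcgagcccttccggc
Calr (mm10 chr8:84847055-84847113, minus strand): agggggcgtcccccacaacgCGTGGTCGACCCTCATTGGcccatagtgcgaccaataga
Hsp90b1, upstream match (mm10 chr10:86705618-86705676, minus strand): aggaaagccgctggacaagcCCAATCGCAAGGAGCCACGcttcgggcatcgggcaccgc
Hsp90b1, downstream match (mm10 chr10:86705513-86705571, minus strand): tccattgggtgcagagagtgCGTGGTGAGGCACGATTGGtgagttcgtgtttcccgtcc
Creld2 (mm10 chr15:88819500-88819558, plus strand): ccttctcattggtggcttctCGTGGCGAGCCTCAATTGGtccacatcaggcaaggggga
The 5 carriers had log2 ratios to CTX between −1.13 (Pdia6) and 0.18 (Hspa5) in the MV left tumor, so the carriers were not alike. Dnajb9, which was higher, and Pdia4, which had the lowest ratio, had no match in these windows. The XBP1 motif TGACGTGG was in 0 of the 29 windows, against 0.676% of all windows, and no match says only that these letters are not in this stretch.

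Of Xbp1 and the degradation genes 0 of 4 were called in either virus tumor against CTX, and their median log2 ratio was −0.04 in the MV left tumor and −0.05 in TRP-1MV with TMM, against 0.42 and 0.40 on the housekeeping scale. Xbp1 had 160.1 CPM in the MV left tumor, 160.2 CPM in TRP-1MV and 180.1 CPM in the Remote tumor, against 168 CPM in CTX. Its activating splice form is not told apart in gene counts. Herpud1, which helps assemble the degradation complex, had log2 ratios to CTX of −0.00 in the MV left tumor and −0.03 in TRP-1MV. Edem1, which marks misfolded glycoproteins for disposal, had 0.12 and 0.13, and Sel1l, the adaptor of the HRD1 ubiquitin ligase, −0.35 and −0.44, in the same libraries against CTX. Herpud1 was the one member whose window held motifs of both arms. Its match to ERSE-II, written ATTGG, then 1 base of any kind, then CCACG, a shorter form found in 0.0365% of all windows, and its CARE match are printed for that reason, each in capitals.
Herpud1, CARE (mm10 chr8:94386297-94386344, plus strand): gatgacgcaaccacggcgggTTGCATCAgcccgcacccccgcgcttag
Herpud1, ERSE-II (mm10 chr8:94386357-94386407, plus strand): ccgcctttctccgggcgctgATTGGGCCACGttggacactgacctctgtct

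The contrast between the amino acid genes and the chaperones can be read inside each library, where no scaling between libraries enters. The amino acid genes had 35.6 reads per 100 chaperone reads in the MV left tumor, 37.0 in TRP-1MV and 80.4 in the Remote tumor, against 73.1 in CTX. Asns had 12.7 reads per 100 Hspa5 reads in the MV left tumor, 13.1 in TRP-1MV and 66.8 in the Remote tumor, against 59.5 in CTX. Trib3 had 6.42 reads per 100 Atf4 reads in the MV left tumor, 6.86 in TRP-1MV and 18.6 in the Remote tumor, against 18.8 in CTX. Both virus tumors were low on all 3 measures, and Atf3 was high, with 32.9 reads per 100 Atf4 reads in the MV left tumor, 32.6 in TRP-1MV and 2.68 in the Remote tumor, against 2.83 in CTX. These are ratios of reads, not of transcripts, since genes differ in length.

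Between libraries, the chaperone median stood above the amino acid median by a log2 difference of 1.04 in the MV left tumor against CTX and of 1.08 in TRP-1MV against CTX, and by −0.11 in the Remote tumor against CTX. Taking every chaperone with every amino acid gene, the chaperone had the higher log2 ratio in 67 of 80 pairings in the MV left tumor against CTX and in 16 of 80 in the Remote tumor against CTX. The difference depends on which amino acid genes are counted. With the 5 enzymes alone it was 1.48 in the MV left tumor against CTX, and with the 3 transporter genes alone 0.32. With the regulators added to the amino acid genes it was 0.53 in that comparison.

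**Figure D3:**
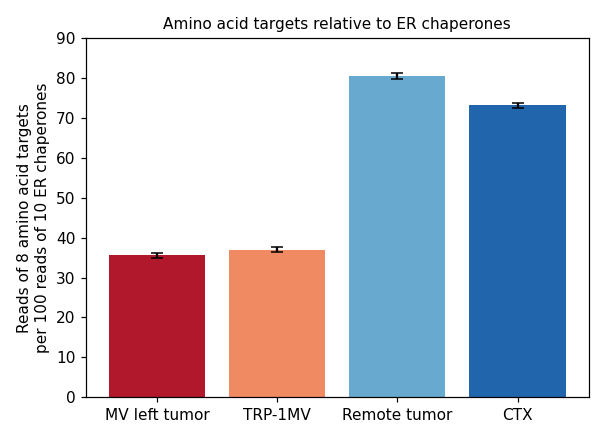
Reads of the 8 amino acid genes per 100 reads of the 10 chaperone genes in each library, with 95% exact counting intervals. The MV left tumor and TRP-1MV stand at 35.6 and 37.0 reads per 100, below the Remote tumor at 80.4 and CTX at 73.1.

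The MV left tumor was also set against the Remote tumor, a comparison that shares no library with TRP-1MV against CTX. Of all genes compared, 11.7% were lower and 18.6% higher in the MV left tumor than in the Remote tumor, and the members counted 11 lower and 5 higher. Amino acid genes counted 6 lower and 1 higher of 8, with a median log2 ratio of −1.59, and chaperones 2 lower and 1 higher of 10, with a median of −0.42. Slc7a11 was called higher here, at 1.23, and Shmt2 was lower at −1.43, a call lost on the housekeeping scale. In TRP-1MV against the Remote tumor 12.1% of all genes were lower and 18.8% higher, and the members counted 10 lower and 5 higher.

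No member passed the ratio of 2 between the virus tumors. In TRP-1MV against the MV left tumor 0 of the 32 members were called in either direction, where 0.562% of all genes compared were higher and 0.217% lower. The interval of the log2 ratio excluded 0 for 6 members. It lay above for Slc7a11, at 0.53 (0.38 to 0.68), Slc3a2, at 0.09, and Calr, at 0.07, and below for Hspa5, at −0.11, Pdia6, at −0.08, and Hsp90b1, at −0.06. Over all genes 11.0% had such intervals above and 11.1% below. The cystine transporter was the member farthest apart, apart from the few reads of Stc2.

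Nor did any member in the uninjected tumor. In the Remote tumor against CTX 0 of the 32 members were called, where 0.457% of all genes were higher and 0.247% lower. Small ratios stood beyond counting error for 12 members above and 4 below, while over all genes 12.1% had intervals above equality and 12.0% below. These genes are well covered, which makes their intervals narrow, and intervals without mouse-to-mouse spread cannot show a difference between treatments. Of the amino acid genes 6 of 8 lay above, led by Shmt2 at a log2 ratio of 0.24 (0.21 to 0.28), with Slc7a5 at 0.12 and Asns at 0.10, and Slc7a11 lay below at −0.45 (−0.65 to −0.25). Atf4 at 0.14, Trib3 at 0.12 and Chac1 at 0.13 lay above as well. Among the chaperones Hsp90b1 at −0.12, Hspa5 at −0.07 and Pdia4 at −0.07 lay below and Calr at 0.08 lay above.

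Counted per kilobase of exon, so that genes can be set side by side, the order within the list also shifted between libraries. Calr had the highest level per length of the 32 in all 4 libraries, and Stc2 the lowest. Asns ranked at 15 in the MV left tumor, 15 in TRP-1MV and 6 in the Remote tumor, against 7 in CTX. Phgdh ranked at 16 in the MV left tumor, 17 in TRP-1MV and 4 in the Remote tumor, against 5 in CTX. Atf3 moved the other way, at 5 in the MV left tumor, 6 in TRP-1MV and 28 in the Remote tumor, against 28 in CTX. Lengths are those of GENCODE M21 gene models on mm10, which may differ from the models the authors counted. In those models 7 members share exon bases with another gene of the tables, the widest being 415 of 4032 bases for Hsp90b1 with 1810014B01Rik, and the strand setting of the counts is not given in the sources used here.

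Other genes of the pathway were taken from lists chosen with the members. The wider amino acid list held 15 further ATF4 targets of amino acid and one-carbon supply. It counted 10 lower and 1 higher in the MV left tumor against CTX, with a median log2 ratio of −1.42. Of all genes, 11.1% were lower and 18.1% higher there. In TRP-1MV against CTX the list counted 10 lower and 1 higher, with a median of −1.34, where 11.7% of all genes were lower and 18.5% higher. Pck2, the mitochondrial PEPCK, was the lowest, with 35.4 CPM in the MV left tumor, 37.1 CPM in TRP-1MV and 163 CPM in the Remote tumor, against 158 CPM in CTX. Cbs, the entry enzyme of transsulfuration, was the exception and higher, with 4.07 CPM in the MV left tumor, 4.47 CPM in TRP-1MV and 0.653 CPM in the Remote tumor, against 1.04 CPM in CTX. Cth, which follows Cbs in making cysteine, was lower at a log2 ratio to CTX of −1.83 in the MV left tumor and −1.55 in TRP-1MV.

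The aminoacyl-tRNA synthetases, many of them ATF4 targets, counted 4 lower and 0 higher of 18 in the MV left tumor against CTX. Of all genes, 11.1% were lower and 18.1% higher in that comparison. Intervals lay below equality for 17 of the 18, as for 42.2% of all genes compared. Gars, glycyl-tRNA synthetase, was the lowest at −1.44, and Qars, glutaminyl-tRNA synthetase, the sole one above, at 0.16. The median log2 ratio was −0.81 in the MV left tumor and −0.83 in TRP-1MV, and on the housekeeping scale 0 of 18 were called in the MV left tumor against CTX, with a median of −0.35. Of 11 further regulators compared, 5 were higher and 2 lower in the MV left tumor than in CTX, where 18.1% of all genes were higher and 11.1% lower. Gdf15, a secreted stress cytokine, stood at a log2 ratio of 2.56, and Cdkn1a, the p21 cell-cycle inhibitor, at 1.70. Cth, Cdkn1a and Cebpb are named after their values were seen. Cebpb, a partner of ATF4 that is also abundant in myeloid cells, was higher at 1.29 in the MV left tumor and 1.76 in TRP-1MV against CTX. Eif4ebp1, a repressor of cap-dependent translation, was lower at −1.41 in the MV left tumor and −1.22 in TRP-1MV against CTX. Both Eif4ebp1 calls were lost on the housekeeping scale, and the call in TRP-1MV was also lost on the total-count scale.

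In a list of the sensors and genes acting with them, 0 of 13 were called in the MV left tumor and in TRP-1MV against CTX. Besides sensors and eIF2alpha kinases it held Mbtps1, Mbtps2, Eif2s1, Ppp1r15b, Eif2b5 and Nfe2l2, so its counts and median are not those of sensors alone. In the MV left tumor against CTX, 3 of the 13, Ern1, Atf6 and Eif2ak3, had intervals above equality, as had 37.6% of all genes compared. Another 8 of the 13 had intervals below, as had 42.2% of all genes, and the list median was −0.18. Atf6b had 86.9 CPM in the MV left tumor, 88.5 CPM in TRP-1MV and 137 CPM in the Remote tumor, against 134 CPM in CTX. Eif2ak3 had 119 CPM in the MV left tumor, 113 CPM in TRP-1MV and 66.9 CPM in the Remote tumor, against 66.0 CPM in CTX. Atf6 stood at a log2 ratio to CTX of 0.79 and Ern1 at 0.81 in the MV left tumor. On the total-count and housekeeping scales Ern1, Atf6 and Eif2ak3 were all called higher in the MV left tumor than in CTX. Eif2ak2, the double-stranded RNA sensor PKR, had 34.5 CPM in the MV left tumor, 33.8 CPM in TRP-1MV and 52.2 CPM in the Remote tumor, against 58.7 CPM in CTX, and was not called.

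Further folding and translocation genes were mostly not called. In the MV left tumor against CTX, where 18.1% of all genes were higher and 11.1% lower, 1 was higher and 2 lower of 15 further folding factors, with a median of −0.47, and 0 higher and 2 lower of 16 translocation genes, with a median of −0.45. Sec61g, a subunit of the translocation channel, had the lowest log2 ratio of the translocation genes, at −1.28, and Sec62 the highest, at 0.61, which was not called. Ero1lb, an oxidase that recharges disulfide isomerases and is typical of secretory cells, was higher at 1.53, and Txndc5 was lower at −1.53. Of 13 further degradation genes 1 was higher, Derl3, with 22 reads in the MV left tumor, 32 reads in TRP-1MV and 2 reads in the Remote tumor, against 2 reads in CTX, and the median was 0.29. Derl3 passed the minimum count only through the virus tumors and so had to differ, and Derl1 had the lowest ratio of the list, at −0.33, which was not called. Cytosolic and mitochondrial heat shock genes counted 1 higher and 1 lower of 11, with Hspa1b, an inducible HSP70, at 1.67 and Hspd1, mitochondrial HSP60, at −1.24, a call lost on the total-count and housekeeping scales. On the housekeeping scale the medians of the chaperone, translocation and heat shock lists in the MV left tumor against CTX were 0.05, 0.00 and 0.08, so their direction rests on the scaling, whereas the amino acid median stayed at −0.99.

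**Figure D4:**
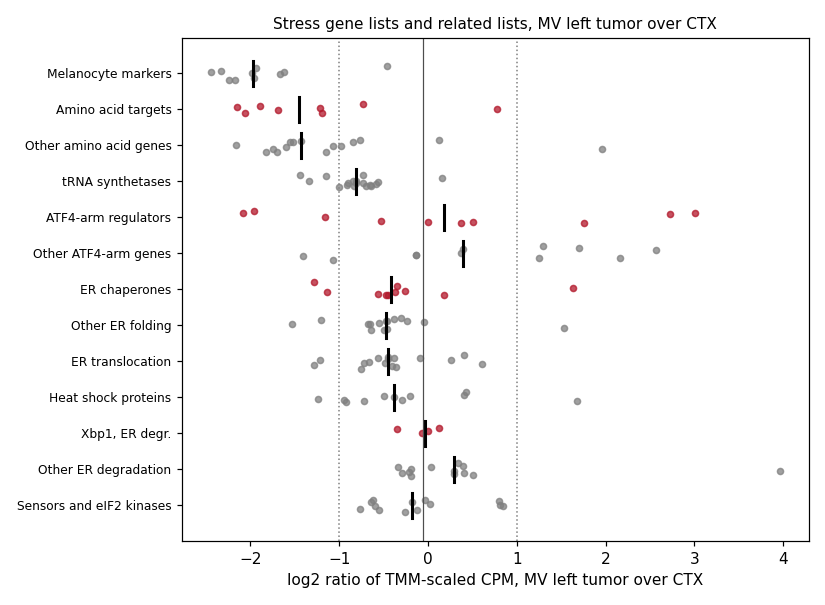
Log2 ratio of every gene of each list in the MV left tumor against CTX, with 1 point per gene, a black bar at the list median, a solid line at the median of all genes and dotted lines at a ratio of 2 in either direction. The amino acid lists lie lowest of the stress lists, at −1.45 and −1.42 and the melanocyte markers lie lower still, at −1.97.

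The split of calls moved with the scaling of the libraries. With TMM, 2411 genes were higher and 1488 lower in the MV left tumor than in CTX, with total counts 2955 and 890, and on housekeeping genes 3654 and 570, naming the higher genes first. In TRP-1MV against CTX those counts were 2476 and 1559, then 2973 and 931, then 3579 and 621. In the MV left tumor against the Remote tumor they were 2483 and 1567, then 3106 and 902, then 3960 and 535, and in TRP-1MV against the Remote tumor 2514 and 1622, then 3089 and 958, then 3869 and 585. Total counts moved the median of all genes by 0.24 and housekeeping scaling by 0.46 on the log2 scale in the MV left tumor against CTX. Asns, Phgdh, Psat1, Mthfd2, Trib3 and Chac1 were called lower, and Atf3, Ppp1r15a and Dnajb9 higher, in both virus tumors against CTX under TMM, total counts and housekeeping scaling alike.

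**Figure D5:**
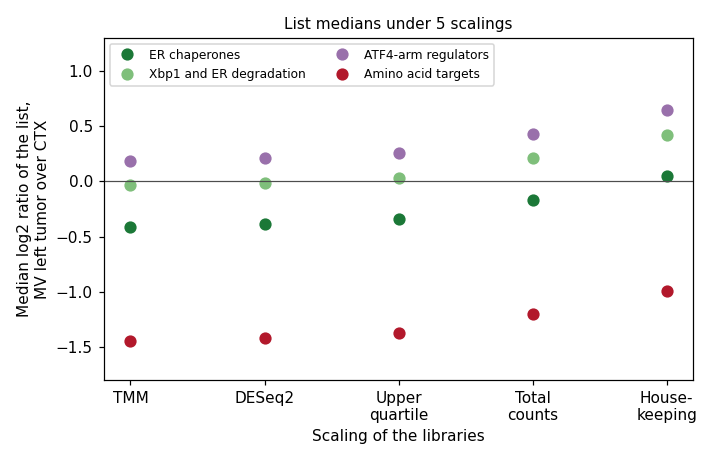
Median log2 ratio of the amino acid, chaperone, regulator and degradation groups under 5 library scalings, comparing the MV left tumor with CTX. The amino acid median lies between −1.45 and −0.99, and the chaperone median moves across 0, from −0.41 with TMM to 0.05 on housekeeping genes.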

How the data were processed

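RNA-seq counts came from 4 libraries, 1 per group, grouped by sample title and treatment label. Each deposited table gives the authors' raw count per gene symbol, in whole numbers and not normalized. The submitters' processing notes name HISAT2, featureCounts and the build mm10, and tool versions, annotation, strandedness and the handling of multi-mapping reads were not given in the sources used here. For this reason, reads shared with paralogs or pseudogenes can be lost or misassigned.

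Scaling used TMM factors from all 4 libraries together (edgeR 4.0.16, R 4.3.3). Genes with a mean count of at least 10 were compared, 13357 of 25239. Intervals of the ratio of 2 libraries are 95% Clopper-Pearson intervals of the share of reads in the first, given the total of both (scipy 1.17.1, numpy 2.4.6, pandas 2.3.3, Python 3.11.15), and PCR copies of a molecule are not told apart. The rule for calls was a ratio of at least 2 with an interval excluding 1. A library with 0 reads was set to a floor of 3 counts for the ratio, and the interval of that ratio is open on the far side. With 3 reads or fewer in both libraries the ratio was left out. The scripts were tested on simulated counts. No p-value was computed, as 1 library per group leaves no spread to test against.

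All 32 members were described. Of the other pathway lists, the text names the genes with the highest and lowest ratio, and says where it names others. Of the sensor list it gives values only for Ern1, Atf6, Eif2ak3 and Eif2ak2, with Atf6b added after its values were seen. Hm13 of the degradation list was not found among the symbols, and Fkbp2, Adm2 and Hspa1a fell below the minimum. A further marker list is not reported here. Members, lists and alternatives were chosen with earlier results of these data known. Promoter windows came from RefSeq, matched by symbol, and gene lengths from GENCODE M21. Alternatives were scaling by DESeq2 1.42.0 size factors, upper quartiles, total counts or housekeeping genes, other minimum counts and ratio thresholds, counts thinned to the smallest library, a prior count of 2, means for medians, and other list boundaries. Figures were drawn with matplotlib 3.10.9.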

Additional observations from a re-analysis of the deposited data

How the results depend on the processing

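No paired analysis was possible because every group was sequenced as a single library. Values below run in the order MV left tumor against CTX, MV left tumor against Remote tumor, TRP-1MV against CTX, TRP-1MV against Remote tumor, unless a comparison is named. No result changed sign where it had been called, under any alternative. DESeq2 size factors, no minimum count, a ratio of 1.5, an interval excluding a ratio of 2, a prior count of 2, the chaperone list with Xbp1 and the degradation genes, and thinning to the smallest total moved none of the member counts, list medians or differences by more than the limits set. For member counts the limit was a 1.5-fold change, so a count could change and stay within it. List medians had to stay between the medians of their members' interval ends. On housekeeping genes the median log2 ratio of the amino acid genes was −0.99, −1.08, −1.03 and −1.13, and 0.037 in the Remote tumor against CTX. The chaperone median was 0.046, 0.085, 0.051 and 0.080, the regulator median 0.64, 0.68, 0.63 and 0.66, and the Xbp1 and degradation median 0.42, 0.35, 0.40 and 0.33, with 6 members lower in each. With total counts the amino acid median was −1.20, −1.33, −1.24 and −1.37, the chaperone median −0.17, −0.17, −0.16 and −0.17, the regulator median 0.43, 0.43, 0.42 and 0.41, and the Xbp1 and degradation median 0.21, 0.10, 0.19 and 0.085, with 7 members lower in the MV left tumor against CTX. With upper-quartile factors the amino acid median was −1.38 in the MV left tumor and −1.40 in TRP-1MV against CTX, and the chaperone median −0.32 in TRP-1MV against CTX. Means in place of medians gave −1.27, −1.30, −1.21 and −1.24 for the amino acid genes, 0.029 for them in the Remote tumor against CTX, −0.31, −0.27, −0.32 and −0.29 for the chaperones, and 0.36 and 0.29 for the regulators in TRP-1MV against CTX and the Remote tumor. At a minimum mean count of 50, which leaves out Stc2, the regulator median was 0.0031, −0.0072, −0.00061 and −0.011. At a ratio of 4, 2 members were higher in each and 3, 4, 4 and 4 lower. Of the ratios of single members, housekeeping scaling ended 18 calls and added 3, total counts ended 12 and added 1, and thinning added 1. The difference between the chaperone and amino acid medians was 1.48, 1.43, 1.48 and 1.43 with the 5 enzymes, 0.32, 0.43, 0.24 and 0.34 with the 3 transporter genes, and 0.53, 0.62, 0.38 and 0.45 with the regulators added. As a difference of means it was 1.02 in the MV left tumor against the Remote tumor, and 0.89 and 0.95 in TRP-1MV against CTX and the Remote tumor. Beyond scaling factors, list membership and thresholds, which are the changes themselves, the cause was not tested. Intervals cover counting error, and the spread between mice is unknown.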
